A study of Mus musculus with 6 samples.

Results

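Aminoacyl-tRNA synthetases were compared between DN3 thymocytes of mice carrying a miR-185 transgene (Tg) and of wild-type (WT) mice. The set held 34 genes of the 30774 gene names on the array, 20 for cytosolic and 14 for mitochondrial enzymes, chosen by symbol or older symbol from a list of the family. They were represented by 73 probes, of which 57 passed the detection filter, and 32 of the 34 genes had at least 1 such probe. Hars2 and Yars2 were detected on no array and were not tested. DN3 thymocytes are early T cell precursors of the thymus, without CD4 or CD8, at the stage at which beta chain rearrangement is checked (beta selection). They were sorted from thymus as cells negative for CD44 and positive for CD25, and cells bearing B220, NK1.1, CD11b, CD11c, CD4, CD8 or a gamma-delta receptor were gated out. There were 3 miR-185 Tg samples and 3 WT samples, all of strain C57BL/6, each on 1 of the 6 arrays of 1 Illumina MouseWG-6 v2.0 BeadChip. The labels give no promoter for the transgene, no age and no sex. Nor do they state if the samples are single mice or pools, so every p-value here reflects variation among 6 samples whose independence, and thus a technical share of that variation, is not known.

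An aminoacyl-tRNA synthetase joins an amino acid to its tRNA, which then carries it to the ribosome. Cytosol and mitochondria each need a full set of charged tRNAs, and most amino acids have separate nuclear genes for the enzymes of the cytosol and of the mitochondrion. Gars and Kars each encode both forms, and glutamine reaches mitochondrial tRNA by transamidation. Several cytosolic enzymes are held together with the scaffold proteins Aimp1, Aimp2 and Eef1e1 in the multisynthetase complex. Many cytosolic synthetase genes are known targets of ATF4, the transcription factor of the amino acid response, and Wars is inducible by interferon gamma. The cells that enter beta selection begin to grow and divide, which raises the demand for charged tRNA.

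Promoter windows were available for 25 of the 34 genes in RefSeq's GRCm38.p6 table, each of 300 bases from 250 before to 50 after the gene's start. Shown here are those of the 3 synthetase genes that passed the threshold when 1 outlying array was left out. Capitals mark the core of the C/EBP-ATF response element, TGATGNAA on either strand, and the E-box CACGTG, the site known for Myc and related factors. Farsb, the beta subunit of the phenylalanine enzyme, lies at chr1:78488848-78489147 on the minus strand. Gars, the glycine enzyme, lies at chr6:55037751-55038050 on the plus strand. Iars, the isoleucine enzyme, lies at chr13:49681880-49682179 on the plus strand.
Farsb: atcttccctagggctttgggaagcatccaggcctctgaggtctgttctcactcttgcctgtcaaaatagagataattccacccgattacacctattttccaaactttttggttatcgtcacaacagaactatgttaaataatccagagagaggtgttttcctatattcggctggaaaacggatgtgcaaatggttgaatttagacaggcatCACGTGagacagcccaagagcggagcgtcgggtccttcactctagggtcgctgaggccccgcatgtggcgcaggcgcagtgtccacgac
Gars: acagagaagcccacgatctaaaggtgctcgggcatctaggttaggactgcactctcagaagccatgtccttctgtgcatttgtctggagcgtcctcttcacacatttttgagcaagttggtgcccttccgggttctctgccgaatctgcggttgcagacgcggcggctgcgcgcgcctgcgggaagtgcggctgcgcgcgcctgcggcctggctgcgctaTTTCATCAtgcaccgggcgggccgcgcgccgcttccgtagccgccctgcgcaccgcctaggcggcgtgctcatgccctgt
Iars: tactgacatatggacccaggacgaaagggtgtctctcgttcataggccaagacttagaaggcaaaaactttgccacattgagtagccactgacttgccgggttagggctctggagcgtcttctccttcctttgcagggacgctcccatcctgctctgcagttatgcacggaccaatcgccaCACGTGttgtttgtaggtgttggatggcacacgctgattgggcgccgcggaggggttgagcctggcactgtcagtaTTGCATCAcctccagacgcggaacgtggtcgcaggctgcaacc
The Farsb window held 1 E-box, the Gars window 1 C/EBP-ATF core and the Iars window 1 of each. Of the 13 cytosolic genes with a window, 5 had the C/EBP-ATF core (Aars, Gars, Iars, Tars and Yars), as did 0 of 12 mitochondrial genes. Among all 32851 windows, counted by window and not by gene, 3.97% held it. The E-box was found for 4 of these 13 cytosolic genes (Aars, Farsb, Iars and Tars) and 1 of 12 mitochondrial genes (Ears2), and in 7.15% of all windows. These are matches of letters in a window, not measured binding. The cytosolic genes with a C/EBP-ATF core had log2 fold changes from -0.88 (Iars) to -0.16 (Yars), inside the range of the cytosolic genes as a whole.

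Between 39.5% and 41.8% of probes were detected per array, with a median of 41 to 42 beads per probe. Tg 2 stood apart on the first principal component, which held 44.0% of the variance, and its mean correlation with the other arrays was 0.941, against 0.954 to 0.971 for the others. WT 2 and WT 3 lay closest together, at r = 0.996 across kept probes. The Y-linked gene Ddx3y was lowest on Tg 2, at a log2 intensity of 6.06 against 9.06 to 10.49 on the other arrays. Xist was also lowest on Tg 2, at 9.02. Both Ddx3y, at 10.49, and Xist, at 12.30, were highest on Tg 3. All 8 DN3 markers were measured, of which 2 were called higher in Tg and 0 lower, beside 2.55% and 1.68% of all genes. Their median log2 fold change was 0.54, with 6 positive and 2 negative. The negative ones were Rag1, at -0.64 ± 0.37, and Rag2, at -0.26 ± 0.26, both with overlapping groups. Il2ra, which encodes the sort marker CD25, had 11.09, 11.02 and 10.85 on the Tg arrays, against 8.96, 9.75 and 9.62 on the WT arrays, a log2 fold change of 1.54 ± 0.23 (limma adjusted p = 0.016). Dtx1, a target of Notch, was at 2.54 ± 0.39 (limma adjusted p = 0.016). Of 25 markers of other cell types, 15 did not pass the detection filter, among them Cd4, Cd8a, Itgam, Itgax, Klrb1c and Foxn1. Of the 10 that passed, Nkg7, a granule protein gene of NK and cytotoxic cells, was called higher in Tg, with a log2 fold change of 1.57 (limma adjusted p = 0.015). Without the red blood cell genes, the summed intensity of these markers lay between 5825 and 5900 on the Tg arrays, against 3483 to 3881 on the WT arrays. With the red blood cell genes the sums were 6799 to 7981 on the Tg arrays, against 3884 to 18776 on the WT arrays. Nkg7 alone accounted for 2440 to 3431 of these sums on the Tg arrays, against 712 to 1085 on the WT arrays. Cd8b1, the 1 later thymocyte marker measured, gave 1424 to 2621 on the Tg arrays, against 1809 to 2184 on the WT arrays. The B cell, myeloid and thymic epithelium sums also overlapped between the groups, while Cd74 gave 25 to 80 in Tg against 20 to 22 in WT. Cd74 was detected on 3 Tg and 0 WT arrays and did not pass the test (limma adjusted p = 0.112). It entered the comparison through the Tg arrays alone, so its separation rests on that selection. The globin gene Hbb-b1 had log2 intensities of 9.58, 10.21 and 9.40 on the Tg arrays, against 12.40 on WT 2 and 13.12 on WT 3, which stood above the rest, while WT 1 was the lowest array. S100a8, a neutrophil gene, was detected on 0 Tg and 3 WT arrays and did not pass the test (limma adjusted p = 0.081). It passed the detection filter through the WT arrays alone. Lyz2, of the same myeloid list, went the other way at 1.45 ± 0.45, with every Tg array above every WT array (limma adjusted p = 0.123). Csf1r of that list was at -0.05 ± 0.13, with overlapping groups. The part of these differences in the results that follow was not tested.

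No synthetase gene passed the test between miR-185 Tg and WT cells, but most cytosolic genes were lower on the Tg arrays. Of the 32 measured genes, 0 were called in either direction at an adjusted p under 0.05 (limma, Benjamini-Hochberg over 12426 genes), whereas 4.23% of all genes were called, 1.68% as lower and 2.55% as higher. At an unadjusted p under 0.05, 5 synthetase genes were lower (Iars, Farsb, Gars, Rars and Kars) and 0 were higher, beside 8.89% of all genes lower and 11.1% higher. The log2 fold change of Tg over WT was negative for 25 of 32 genes, against 50.1% of all genes. In 12 of 32 genes every Tg array lay below every WT array, against 13.2% of all genes, and in 1 of 32 every Tg array lay above every WT array, against 14.9% of all genes. RNA came from bulk samples, so fewer cells of a type and less RNA per cell cannot be told apart. Tested probe by probe, 0 of 57 kept synthetase probes were called, beside 3.3% of 18597 probes. Of these 57, 43 had a negative log2 fold change, and 22 had every Tg array below every WT array, against 13.7% of all probes.

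**Figure D1:**
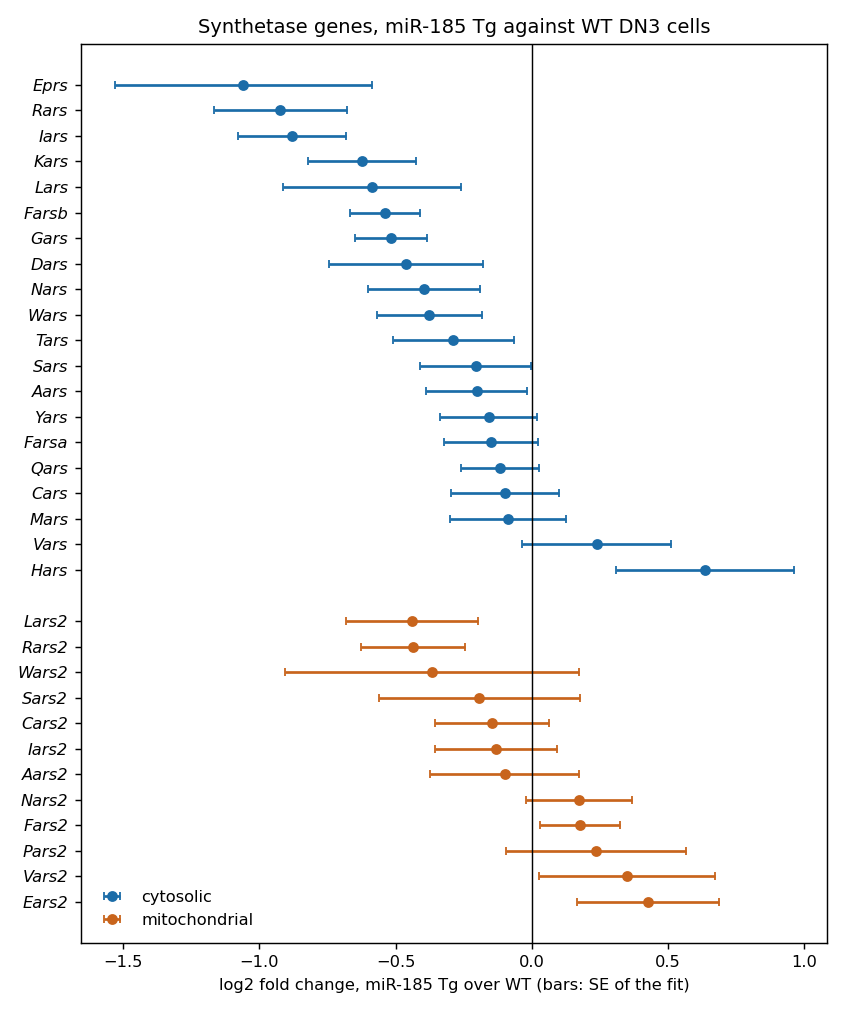
Log2 fold change of miR-185 Tg over WT (x axis, bars are the SE of the limma fit, 3 arrays a group) for the 20 cytosolic and 12 measured mitochondrial synthetase genes. Of the cytosolic genes, 18 lie left of 0, and of the mitochondrial genes 7, and none passed the adjusted threshold.

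Eprs, Rars, Iars, Kars and Lars, all of the multisynthetase complex, had the most negative log2 fold changes of the 32 measured genes when all 6 arrays were used. Without Tg 2, Lars was at -0.20, and Sars2 (-0.62), Farsb (-0.53) and Wars (-0.48), outside the complex, were more negative than Kars (-0.47). The median over the 8 synthetases of the complex was -0.61, against -0.20 for the 12 cytosolic synthetases outside the complex and -0.0014 for all genes tested. Without Tg 2 these medians were -0.34 in the complex and -0.22 outside it. Iars, the isoleucine enzyme, had normalised log2 intensities of 9.79, 9.20 and 9.45 on the Tg arrays, against 10.39, 10.25 and 10.43 on the WT arrays. All 3 Tg arrays lay below all 3 WT arrays. Its means were 9.48 ± 0.30 in Tg and 10.36 ± 0.09 in WT cells (SD, n = 3 each), a log2 fold change of -0.88 ± 0.20 (SE), and the limma adjusted p of 0.051 missed the threshold. The second Iars probe gave -0.73 ± 0.23.

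Rars, the arginine enzyme, had 9.95, 9.19 and 9.15 on the Tg arrays, against 10.25, 10.44 and 10.37 on the WT arrays. The groups did not overlap, and Tg 1 lay nearest to the WT arrays. The log2 fold change was -0.92 ± 0.24 (limma adjusted p = 0.078), and the second probe gave -0.84 ± 0.30. Kars, the lysine enzyme of cytosol and mitochondrion, had 10.02, 9.45 and 9.81 on the Tg arrays, against 10.53, 10.26 and 10.36 on the WT arrays, again without overlap. Its log2 fold change was -0.62 ± 0.20 (limma adjusted p = 0.126), and its dimmer probe gave -0.93 ± 0.22.

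Eprs, the bifunctional enzyme for glutamate and proline, had the most negative value of the family, but with a wide spread. It had 9.01, 6.95 and 8.27 on the Tg arrays, against 8.93, 9.18 and 9.30 on the WT arrays. Tg 2 was far below the rest, and Tg 1 lay within the WT range. The log2 fold change was -1.06 ± 0.47 (limma adjusted p = 0.264), and -0.50 without Tg 2. Its second, dimmer probe had 5.99, 5.33 and 6.75 on the Tg arrays, against 7.69, 7.52 and 7.54 on the WT arrays, with no overlap and a log2 fold change of -1.56 ± 0.36 (limma adjusted p over probes 0.060).

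The brightest probes of Lars and Dars, the leucine and aspartate enzymes, took most of their difference from Tg 2. Lars had 12.03, 10.55 and 11.39 on the Tg arrays, against 11.92, 11.94 and 11.87 on the WT arrays, and the groups overlapped. Its log2 fold change of -0.59 ± 0.33 became -0.20 without Tg 2. The other kept Lars probes gave -0.53 ± 0.35 and -0.80 ± 0.33, with overlapping groups. Dars had 11.90, 10.78 and 11.83 on the Tg arrays, against 11.92, 11.98 and 11.99 on the WT arrays, with Tg 1 just below WT 1. Its log2 fold change of -0.46 ± 0.28 became -0.10 without Tg 2. The second Dars probe had 9.44, 9.39 and 8.97 on the Tg arrays, against 9.66, 10.45 and 10.26 on the WT arrays. On this probe the groups did not overlap and Tg 3 was lowest. Its log2 fold change was -0.86 ± 0.26 with all 6 arrays. Mars (Mars1 in RefSeq), the methionine enzyme, and Qars, the glutamine enzyme, were near 0 at -0.09 ± 0.21 and -0.12 ± 0.14, and their groups overlapped. The second kept Qars probe gave -0.26 ± 0.18, with every Tg array below every WT array.

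The 3 scaffold genes of the complex were also lower on the Tg arrays without reaching the threshold. Aimp2 had 8.90, 9.37 and 8.59 on the Tg arrays, against 9.66, 9.54 and 9.70 on the WT arrays. The groups did not overlap, and the log2 fold change was -0.68 ± 0.23 (limma adjusted p = 0.153). Aimp1 and Eef1e1 gave -0.37 ± 0.16 and -0.42 ± 0.21, with no overlap for either. Over the 11 genes of the complex, 11 had a negative log2 fold change, against 50.1% of all genes. In 7 of the 11 every Tg array lay below every WT array, against 13.2% of all genes. The median over the 11 was -0.59, and -0.47 without Tg 2.

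Among the cytosolic synthetases outside the complex, Farsb and Gars had the smallest p-values. Farsb had 11.22, 11.15 and 11.11 on the Tg arrays, against 11.75, 11.71 and 11.63 on the WT arrays. The spread within each group was a fraction of the gap between them, and Tg 2 did not stand apart here. Its means were 11.16 ± 0.06 in Tg and 11.70 ± 0.06 in WT cells (SD, n = 3 each), a log2 fold change of -0.54 ± 0.13 (limma adjusted p = 0.059). The second Farsb probe gave -0.45 ± 0.14.

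Farsa, the alpha subunit that pairs with Farsb, was lower on all Tg arrays too, but by a smaller amount of -0.15 ± 0.17. Its only probe was dim, with means of 5.78 in Tg and 5.93 in WT cells, and log2 differences understate the change of dim genes. The difference between the subunits was not tested. Gars had 12.54, 12.21 and 12.43 on the Tg arrays, against 13.02, 12.81 and 12.90 on the WT arrays. There was no overlap, and the log2 fold change was -0.52 ± 0.13 (limma adjusted p = 0.072). Its second probe, detected on 3 of 6 arrays, gave -0.47 ± 0.25.

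Nars (asparagine), Tars (threonine) and Sars (serine) had log2 fold changes of -0.40, -0.29 and -0.21, each with every Tg array below every WT array. Aars (alanine), Yars (tyrosine) and Cars (cysteine) gave -0.20, -0.16 and -0.10, with overlapping groups. Cars was near the detection limit, detected on 1 Tg and 2 WT arrays.

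Hars and Vars, the histidine and valine enzymes, were the only cytosolic genes with a positive value, and their probes did not agree in sign. The brighter Hars probe had 6.32, 6.57 and 7.39 on the Tg arrays, against 6.44, 6.13 and 5.80 on the WT arrays, a log2 fold change of 0.64 ± 0.33 (limma adjusted p = 0.332). Tg 1 lay below WT 1, and Tg 3 was highest. The other Hars probe gave -0.17 ± 0.15. Vars had 11.06, 11.62 and 10.57 on the Tg arrays, against 11.14, 10.76 and 10.65 on the WT arrays. The Tg arrays spanned the whole WT range, with a log2 fold change of 0.24 ± 0.27 that became -0.03 without Tg 2. Its other probes gave 0.02 ± 0.26 and -0.62 ± 0.28. Sars had 8.24, 8.45 and 8.44 on the Tg arrays, against 8.77, 8.46 and 8.51 on the WT arrays, a log2 fold change of -0.21 ± 0.20, whereas its dimmer probe gave 0.08 ± 0.27. The 5 genes with probes of opposite sign were Hars, Vars, Sars and the mitochondrial Cars2 and Iars2, of 19 genes with more than 1 kept probe.

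**Figure D2:**
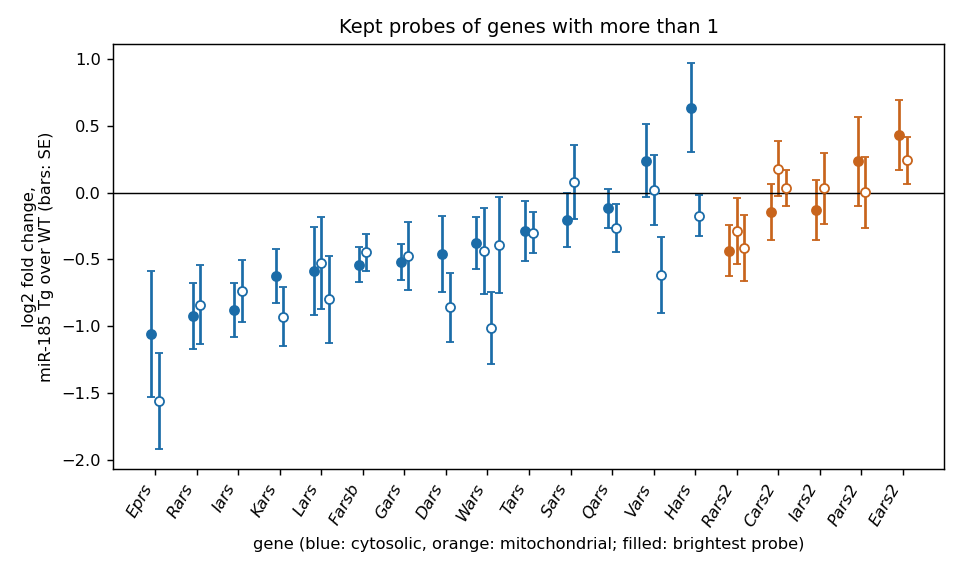
Log2 fold change of miR-185 Tg over WT (y axis, bars are the SE of the limma fit) for each kept probe of the 19 synthetase genes with more than 1, with the brightest probe filled. The probes of Eprs, Rars, Iars, Kars, Farsb, Gars and Wars all lie below 0, while those of Sars, Vars, Hars, Cars2 and Iars2 lie on both sides.

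**Figure D3:**
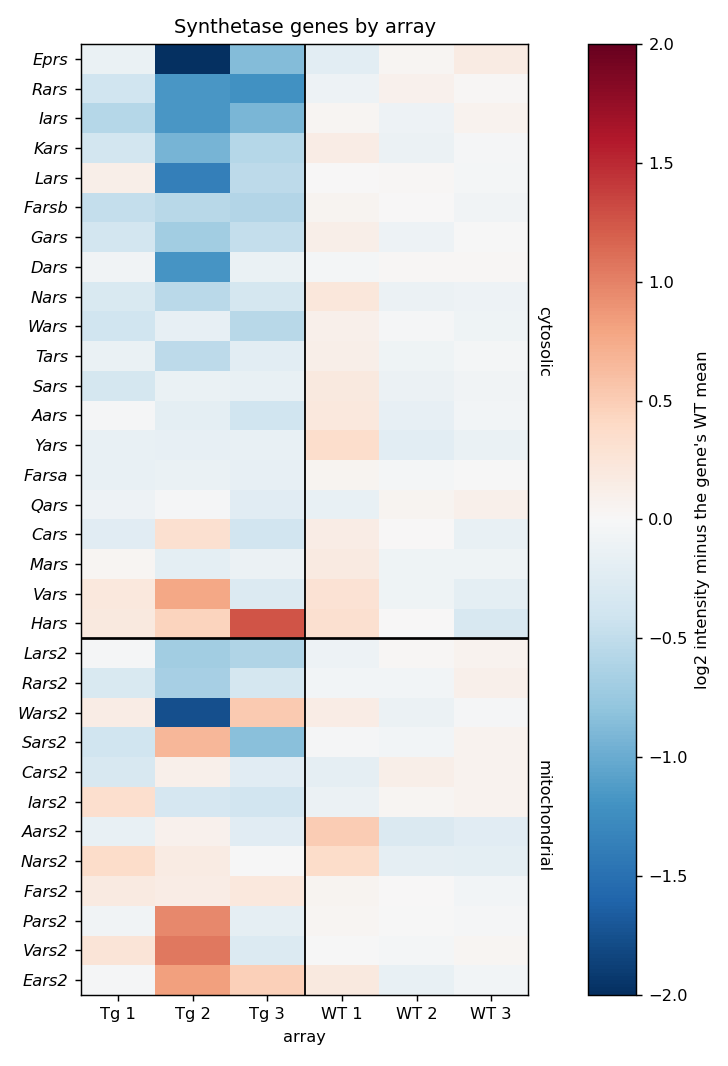
Log2 intensity minus the gene's WT mean (colour) for the 32 measured synthetase genes (rows) on the 3 Tg and 3 WT arrays (columns), with values beyond 2 shown at the end of the scale. Tg 2 was the lowest array for 9 of 20 cytosolic genes (28.6% of all genes) and Tg 3 for 8 of 20 (2491 of 12426 for all genes), while Tg 2 was the highest for 4 of 12 mitochondrial genes, near its 32.0% of all genes.

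The mitochondrial synthetases showed no common direction. Of 12 measured genes, 7 had a negative and 5 a positive log2 fold change, 0 were called, and the median was -0.11, against -0.33 for the 20 cytosolic genes. Every Tg array lay below every WT array in 1 mitochondrial gene (Rars2) and above in 1 (Fars2), whereas the 20 cytosolic genes had 11 below and 0 above. Over all genes the shares were 13.2% below and 14.9% above, and the mitochondrial counts of 1 of 12 lay near them. Rars2, for arginine, had 9.19, 8.82 and 9.14 on the Tg arrays, against 9.44, 9.43 and 9.58 on the WT arrays. The groups did not overlap, and the log2 fold change was -0.44 ± 0.19 (limma adjusted p = 0.253). Its other kept probes gave -0.29 ± 0.25 and -0.41 ± 0.24.

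Lars2, for leucine, had 8.68, 8.01 and 8.10 on the Tg arrays, against 8.61, 8.73 and 8.77 on the WT arrays. Tg 1 lay inside the WT range, and the log2 fold change was -0.44 ± 0.24 (limma adjusted p = 0.365). Ears2, for glutamate, had 8.54, 9.40 and 9.05 on the Tg arrays, against 8.77, 8.42 and 8.52 on the WT arrays. Here Tg 2 and Tg 3 were above the WT arrays and Tg 1 among them, with a log2 fold change of 0.43 ± 0.26 (limma adjusted p = 0.424). Fars2, for phenylalanine, was higher on all Tg arrays by 0.18 ± 0.15, opposite in sign to its cytosolic counterparts Farsa and Farsb.

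Cars2, for cysteine, had 8.66, 9.08 and 8.75 on the Tg arrays, against 8.79, 9.09 and 9.05 on the WT arrays, a log2 fold change of -0.15 ± 0.21. Its other probes gave 0.18 ± 0.21 and 0.03 ± 0.13. Iars2, for isoleucine, had 10.56, 9.89 and 9.85 on the Tg arrays, against 10.11, 10.27 and 10.31 on the WT arrays. Tg 1 was the highest and Tg 2 and Tg 3 the lowest of the 6 arrays, with a log2 fold change of -0.13 ± 0.23 and 0.03 ± 0.26 for its other probe.

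Several mitochondrial values rested on Tg 2. Vars2 had 9.21, 10.00 and 8.68 on the Tg arrays, against 8.94, 8.91 and 8.98 on the WT arrays, and its log2 fold change of 0.35 became -0.0032 without Tg 2. On this array the name VARS2 is also an older name of Vars. Wars2, for tryptophan, had 6.72, 4.81 and 7.09 on the Tg arrays, against 6.72, 6.45 and 6.55 on the WT arrays, and turned from -0.36 to 0.33 without Tg 2. Pars2, for proline, turned from 0.24 to -0.13, and Sars2, for serine, moved from -0.19 to -0.62. Aars2 and Nars2 gave -0.10 and 0.17, and Nars2 was detected on 3 Tg arrays and 1 WT array.

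Per array, the cytosolic and mitochondrial medians were set side by side relative to each gene's WT mean. The cytosolic median was -0.15, -0.36 and -0.37 on the Tg arrays, against 0.11, -0.06 and -0.04 on the WT arrays. The mitochondrial median was -0.02, 0.13 and -0.22 on the Tg arrays, against 0.02, -0.04 and 0.01 on the WT arrays. The cytosolic median was thus lower on every Tg array than on every WT array, and the mitochondrial median was not. Cytosolic minus mitochondrial was -0.13, -0.48 and -0.15 on the Tg arrays, against 0.10, -0.02 and -0.05 on the WT arrays, with the largest gap on Tg 2. This difference is a description of lists chosen with results of these data known and was not tested. WT 1 was the highest array for 11 of 20 cytosolic genes, against 16.1% of all genes.

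**Figure D4:**
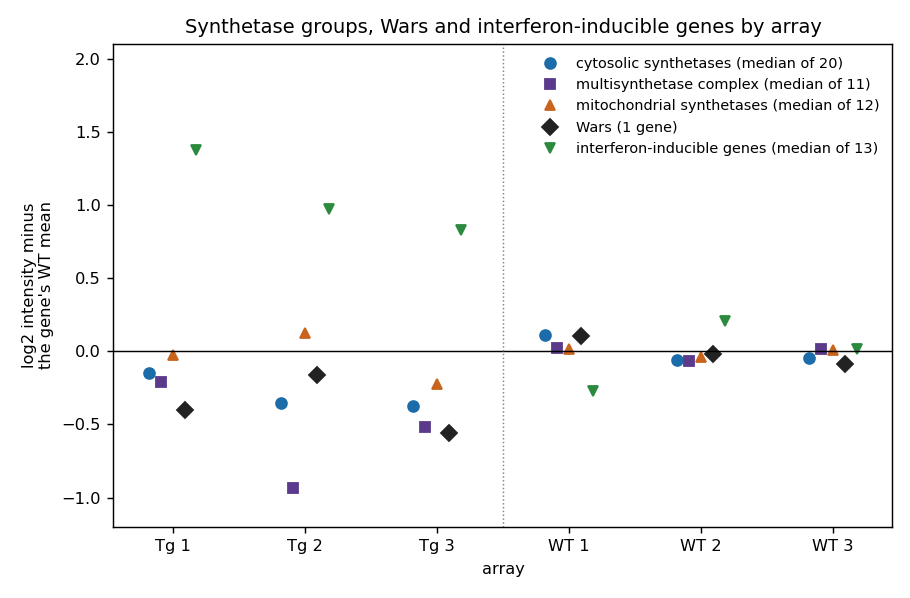
Median log2 intensity minus each gene's WT mean (y axis) for the cytosolic and mitochondrial synthetases, the multisynthetase complex, Wars alone and 13 interferon-inducible genes on each array (x axis, 3 Tg then 3 WT). The complex lies lowest on Tg 2, at -0.93, and Wars lies below 0 on the Tg arrays on which the interferon-inducible genes lie above it.

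Wars, the tryptophan enzyme, was lower on the Tg arrays, on which other interferon-inducible genes were higher. It had 9.04, 9.27 and 8.87 on the Tg arrays, against 9.54, 9.42 and 9.35 on the WT arrays, with no overlap. Its means were 9.06 ± 0.20 in Tg and 9.44 ± 0.10 in WT cells (SD, n = 3 each), a log2 fold change of -0.38 ± 0.19 that did not pass the test (limma adjusted p = 0.329). The 4 kept Wars probes gave -0.38, -0.44, -1.01 and -0.39, all negative, and 0 passed the test over probes. Its value was close to the median of -0.29 over the other 19 cytosolic synthetases. Relative to that list, Wars stood at -0.25, 0.35 and -0.21 on the Tg arrays, against -0.01, 0.06 and -0.04 on the WT arrays, so the groups overlapped.

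Of 13 other interferon-inducible genes, 7 were called higher in Tg and 0 lower, beside 2.55% and 1.68% of all genes. The other 6 did not pass the test, and the median log2 fold change of the 13 was 0.86. The groups overlapped in 3 of the 13, Psmb8 (0.33), Gbp2 (0.21) and Irgm1 (0.16). Those called were the transcription factors Irf1 (1.74-fold) and Irf7 (4.72-fold), the immunoproteasome subunit Psmb9 (2.82-fold), the GTPases Igtp (3.73-fold) and Ifi47 (1.77-fold), the deconjugating enzyme Usp18 (3.71-fold) and the oligoadenylate synthetase-like gene Oasl2 (6.61-fold), with limma adjusted p from 0.0062 to 0.048. Relative to the WT mean, this list stood at 1.37, 0.97 and 0.83 on the Tg arrays, against -0.27, 0.21 and 0.02 on the WT arrays. Wars minus this list was -1.77, -1.14 and -1.39 on the Tg arrays, against 0.37, -0.23 and -0.10 on the WT arrays, with no overlap and no test.

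Other genes that act on tRNA or amino acid supply were mostly not called. Of 14 further charging, proofreading and transamidation genes, 0 were called, beside 4.23% of all genes, and the median log2 fold change was -0.18. The smallest p belonged to Tarsl2, a second cytosolic threonine enzyme, with 5.98, 5.77 and 5.59 on the Tg arrays, against 6.65, 6.68 and 6.65 on the WT arrays. The groups were well separated, and the log2 fold change was -0.88 ± 0.20 (limma adjusted p = 0.055). Of 9 translation elongation genes, 0 were called, beside the same 4.23% of all genes, with a median of -0.30. Among them the smallest p belonged to the elongation factor Eef2, at -0.65 ± 0.19 (limma adjusted p = 0.106).

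Of 16 genes of the ATF4 amino acid response, 12 were measured, with a median of -0.07. Of these, 1 was called higher and 1 lower, beside 2.55% and 1.68% of all genes. Psat1, an enzyme of serine synthesis, had 10.35, 10.49 and 10.58 on the Tg arrays, against 11.41, 11.29 and 11.32 on the WT arrays, and fell by 0.87 ± 0.15 on the log2 scale (limma adjusted p = 0.022). Trib3, a pseudokinase induced by ATF4, averaged 5.46 in Tg and 4.48 in WT cells. It was detected on no WT array, so it was at least 1.73-fold higher in Tg (limma adjusted p = 0.037), against the lowest signal among detected probes or its own. It passed the detection filter through the Tg arrays alone, so its call and the count of 1 higher rest on that selection. Atf4 itself was at 0.08 ± 0.13. Of 7 Myc and growth genes, 5 were measured with a median of -0.93. Among them 1 was called lower and 0 higher, beside 1.68% and 2.55% of all genes. The called gene was Cad, of pyrimidine synthesis, which fell by 1.00 ± 0.22 on the log2 scale (limma adjusted p = 0.048).

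Leaving out Tg 2, the array that stood apart, brought 3 synthetase genes past the threshold. In the remaining 2 Tg and 3 WT arrays, Iars fell by 0.74 (limma adjusted p = 0.023), Farsb by 0.53 (limma adjusted p = 0.023) and Gars by 0.42 (limma adjusted p = 0.045) on the log2 scale, and 0 synthetase genes were called higher. The same fit called 13.8% of all genes, 6.27% lower and 7.48% higher. The 3 of 32 synthetase genes stand beside that 6.27% of all genes called lower. Rars was at -0.80 (limma adjusted p = 0.063), Wars at -0.48 (limma adjusted p = 0.066) and Kars at -0.47 (limma adjusted p = 0.070). The cytosolic median was -0.22 and the mitochondrial median -0.08 without Tg 2, and 27 of 32 genes were negative.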

How the data were processed

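DN3 thymocyte RNA of 3 miR-185 Tg and 3 WT samples was hybridised to 6 arrays of 1 chip, grouped by their titles. The probe table is an export of GenomeStudio 1.9.0 without normalisation, per the file headers. It holds the mean bead intensity per probe, deposited on a linear scale, with a deposited detection score (a fraction of 0 to 1, read as 1 minus the detection p), the count of beads, and the SD between beads, per the file headers. The authors' own series values, used as an alternative, equal the log2 of a deposited gene-averaged intensity table (largest difference 6.29e-07 over 34749 rows). Their column medians of 6.65 to 6.78 show no scaling between arrays. No source used here says whether background was subtracted.

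Intensities were background-corrected by normexp from the detection p (offset 16), quantile normalised and put on the log2 scale with limma 3.58.1 in R 4.3.3. The filter kept 18597 of 45281 probes, those detected (p under 0.05) on 3 or more of 6 arrays. A gene was represented by its brightest kept probe, which gave 12426 genes. All were fitted with lmFit and eBayes with a trend, two-sided, with Benjamini-Hochberg adjustment over all genes and a threshold of 0.05. The number of arrays limits the precision, and log2 differences understate the change of dim genes. Bead error was 0.03 to 0.07 (median SE per kept synthetase probe, log2). Names were matched to RefSeq: 64 synthetase probes by symbol and 9 by an older one. The names VARS2, HARS2 and FARSA are also older names of Vars, Dtd1 and Farsb. The members and gene lists were chosen with earlier results of these data known, so lists are described by counts and medians without a test. Values on every array are given for called members, the 4 cytosolic and 3 mitochondrial genes with the smallest p, Wars, and genes with probes of opposite sign. Of each other list the called genes, or else the one with the smallest p, are named. Other genes with values on every array, such as Kars, Eprs, Lars, Dars, Aimp2, Vars2 and Wars2, were picked with their values in view. The fit was tested on simulated data. Same-numbered Tg and WT samples had correlations of deviations of -0.25, 0.11 and -0.22, so the numbers were not taken to pair samples. Alternatives covered background, offset, scaling, the filter, the authors' values, array weights, the variance model, the probe rule, a replicate block, the threshold and each array left out. Leaving out Gars and Kars, or Vars2, was added after seeing the data. The transgene product was not analysed here.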

Additional observations from a re-analysis of the deposited data

How the results depend on the processing

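The count of 0 synthetase genes called stayed at 0 in the alternatives of background, offset, scaling, the filter, the authors' series values, the probe rule, the variance trend and the average of WT 2 and WT 3. It ranged from 0 to 3 with 1 array left out, the 3 without Tg 2. It was 9 with array quality weights (8 lower, 1 higher, among 36% of all genes called) and 4, all lower, at a threshold of 0.1. The count of 0 probes called was 1 without background correction, 1 without a variance trend, 23 with array quality weights, 7 at a threshold of 0.1, and from 0 to 7 with 1 array left out. With array quality weights Wars was at -0.36 (limma adjusted p = 0.029), the cytosolic median at -0.16 and the mitochondrial median at 0.072. The mitochondrial median ranged from -0.101 to 0.063 with 1 array left out, and it changed sign without Tg 3. The cytosolic median stayed negative in every alternative run. With the replicate block 0 synthetase genes and 0 probes were called, and Wars was at -0.38 (limma adjusted p = 0.552). The block gave 264 calls over all genes, against 526 without it, and changed no call of a synthetase gene.

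Calls over all genes depended on single arrays: 49 without Tg 1, 1709 without Tg 2, 658 without Tg 3, 1 without WT 1, 47 without WT 2, 2 without WT 3, and 36 with WT 2 and WT 3 averaged. Median scaling gave 310 and no filter on dim probes 312. The causes were not tested.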
